A study of Rattus norvegicus with 9 samples.

Results

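The mitosis genes described here are 44 rat genes whose products carry a cell into and through division: cyclin-dependent kinase 1 and its partners, the mitotic kinases, the spindle checkpoint, spindle motors, chromosome proteins, the anaphase machinery and the cytokinesis proteins. They were listed by name for that shared function. Of the 44, 39 had a probe set annotated to exactly 1 gene, among 14217 genes that did. The other 5 (Kif4a, Tpx2, Nek2, Anln and Ndc80) had no such probe set and were not analysed here. No minimum on signal was set, so all 39 were tested, including 12 whose mean in the vehicle group was under 5 on the log2 scale.

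RNA was taken from the whole right kidney of Sprague-Dawley rats bought at 8 weeks of age and acclimated for 1 week, and was hybridised to 3′ expression arrays. The rats had daily intraperitoneal injections over 7 days of saline vehicle (0 mg/kg) or of colistin methanesulfonate (CMS, a prodrug of colistin, a polymyxin antibiotic whose dose is limited by toxicity to the kidney) in saline, at 25 or 50 mg/kg body weight. Each dose had 3 rats and 1 array per rat, 9 arrays in all, so the number of rats limits the precision. The outcome labels record no lesion with vehicle, basophilic and widened tubules at 25 mg/kg, and at 50 mg/kg dying cells, degenerating or widened tubules and casts. All levels below are log2 intensities, so a difference of 1 is a 2-fold change, and all errors are standard errors (SE) of limma's fit or SDs over 3 rats. The rats of a dose are numbered as in the labels, and the numbers carry no order.

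In a dividing cell, cyclins A and B switch on cyclin-dependent kinase 1, the chromosomes condense, and motors and kinetochores set them on the spindle. The spindle checkpoint holds back the anaphase-promoting complex until every chromosome is attached, after which Cdc20 lets the complex destroy cyclin B and securin, the chromosomes part and the cell is cut apart. Most of these genes are silent in resting cells and are switched on together late in the cycle through a promoter element called the cell cycle genes homology region (CHR), often with CCAAT boxes bound by NF-Y. Tubule cells of the adult kidney divide seldom, and surviving ones re-enter the cycle after tubular injury.

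Because the members are known for these shared promoter elements, the sequence before the transcription start was searched for the CHR, TTTGAA, for a variant of it, TTTAAA, which is the same on both strands, and for the box CCAAT, each on both strands, in the 250 bases before the start given by RefSeq on the GRCr8 build. An entry was held for 33 of the 39 measured members, all but Ccna2, Aurkb, Ube2c, Pbk, Racgap1 and Foxm1. The 200 bases ending just before the start are shown for the mitotic kinase Cdk1, its cyclins Ccnb1 and Ccnb2, for Mki67, Prc1 and Ect2, which were among the members with the largest rises, and for Melk, which went the other way. Capitals mark the matches on either strand, so that a reverse CCAAT reads ATTGG, and in Mki67 a CHR and a reverse CCAAT share a base.
Cdk1: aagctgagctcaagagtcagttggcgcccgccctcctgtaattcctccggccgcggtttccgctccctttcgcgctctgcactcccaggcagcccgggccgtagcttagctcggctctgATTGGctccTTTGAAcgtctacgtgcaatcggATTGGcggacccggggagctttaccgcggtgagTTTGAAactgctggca
Ccnb1: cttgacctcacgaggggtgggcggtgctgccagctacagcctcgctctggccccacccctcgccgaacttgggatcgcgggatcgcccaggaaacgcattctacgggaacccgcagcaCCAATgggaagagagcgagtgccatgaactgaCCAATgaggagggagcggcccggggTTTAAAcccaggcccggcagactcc
Ccnb2: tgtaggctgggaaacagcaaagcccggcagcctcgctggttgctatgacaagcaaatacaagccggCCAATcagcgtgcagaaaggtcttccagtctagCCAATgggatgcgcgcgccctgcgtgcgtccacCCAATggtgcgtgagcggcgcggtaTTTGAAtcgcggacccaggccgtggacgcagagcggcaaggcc
Mki67: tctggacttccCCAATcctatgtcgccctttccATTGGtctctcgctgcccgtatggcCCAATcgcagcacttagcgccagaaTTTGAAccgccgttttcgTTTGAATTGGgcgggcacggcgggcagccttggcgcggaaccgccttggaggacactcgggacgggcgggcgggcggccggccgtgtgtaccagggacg
Prc1: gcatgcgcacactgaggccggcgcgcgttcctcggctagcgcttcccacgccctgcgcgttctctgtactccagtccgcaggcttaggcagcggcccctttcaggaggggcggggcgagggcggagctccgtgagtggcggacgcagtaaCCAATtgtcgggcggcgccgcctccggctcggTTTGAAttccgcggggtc
Ect2: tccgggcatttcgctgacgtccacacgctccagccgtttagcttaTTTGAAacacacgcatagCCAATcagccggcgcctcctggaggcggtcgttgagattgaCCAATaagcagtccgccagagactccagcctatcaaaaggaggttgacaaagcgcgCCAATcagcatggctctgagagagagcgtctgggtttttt
Melk: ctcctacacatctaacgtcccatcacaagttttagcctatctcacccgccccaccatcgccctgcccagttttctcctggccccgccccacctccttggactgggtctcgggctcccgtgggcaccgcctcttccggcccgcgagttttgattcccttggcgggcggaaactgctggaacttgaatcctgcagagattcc

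These stretches lie at chr20:19265093-19265292 (plus strand) for Cdk1, chr2:33655226-33655425 (minus strand) for Ccnb1, chr8:79981659-79981858 (minus strand) for Ccnb2, chr1:199952594-199952793 (minus strand) for Mki67, chr1:143659281-143659480 (plus strand) for Prc1, chr2:111966627-111966826 (minus strand) for Ect2 and chr5:63335951-63336150 (plus strand) for Melk. A CHR was present in 18 of the 33 members' windows (54.5%), against 16.0% of the windows of all 27457 genes with an entry. The variant was present in 9 (27.3%, against 12.2%), and either form in 26 (78.8%, against 25.3%). CCAAT was found before 27 of the 33 (81.8%, against 34.3%), and at least 2 copies before 19 (57.6%, against 9.77%). Either CHR form together with a CCAAT stood before 24 members (72.7%, against 8.88%). Cdk1, Ccnb1, Ccnb2, Cdca8 and Hmmr had CCAAT copies of the same orientation 32 to 34 bases apart, a spacing looked at after the matches were seen. Such a pair, 31 to 35 bases apart, stood before 0.870% of all genes. No match was found before Melk, Bub1b, Mad2l1 or Nuf2, of which all but Melk were higher at 50 mg/kg in the array data. A match describes these letters in this window only, and no binding was measured.

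**Figure D1:**
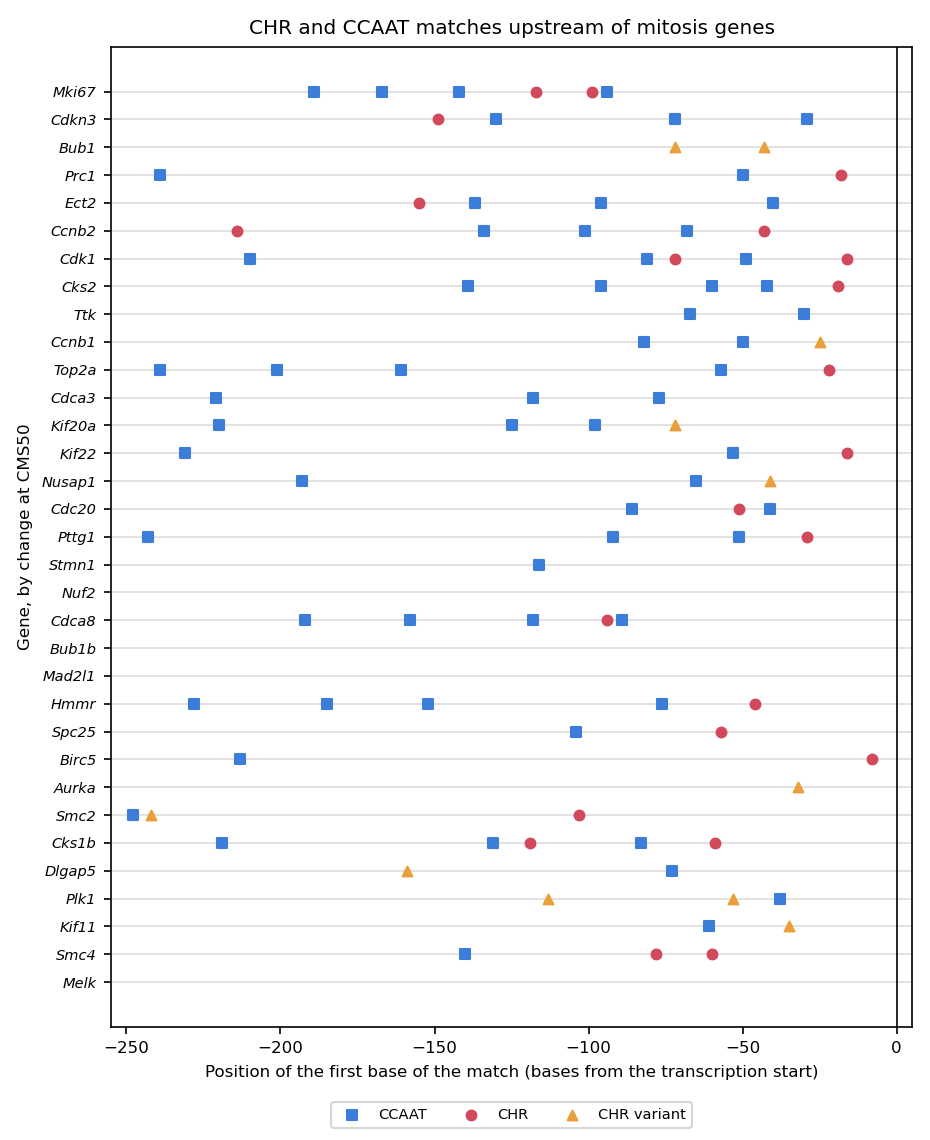
Matches upstream of 33 mitosis genes, ordered by their change at 50 mg/kg. The horizontal axis is the position of the first base of each match in bases from the transcription start; squares are CCAAT, circles the CHR and triangles its variant, on either strand. The match nearest to a start is the CHR of Birc5, 8 bases before it, and the rows of Nuf2, Bub1b, Mad2l1 and Melk are empty.

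At 50 mg/kg, 35 of the 39 members were higher than with vehicle, 2 were lower (Melk and Smc4) and 2 did not pass the test (Dlgap5 and Kif11). Over all 14217 genes, limma called 14.6% higher and 8.17% lower, 22.8% in all, at a Benjamini-Hochberg adjusted p under 0.05. The median change of the 39 members was 1.16 on the log2 scale, and that of all genes was 0.03. Among the 35, the changes ran from 0.52 for Plk1 to 2.45 for Ccna2, with adjusted p between 0.000685 and 0.0465, and 23 of them rose at least 2-fold. In 36 members every array at 50 mg/kg lay above every vehicle array, and in 2 every one lay below, where 25.7% and 16.8% of all genes did so. At 25 mg/kg no member passed the test. The 2 comparisons share the vehicle arrays. In whole kidney, more dividing cells and more RNA per dividing cell cannot be told apart.

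**Figure D2:**
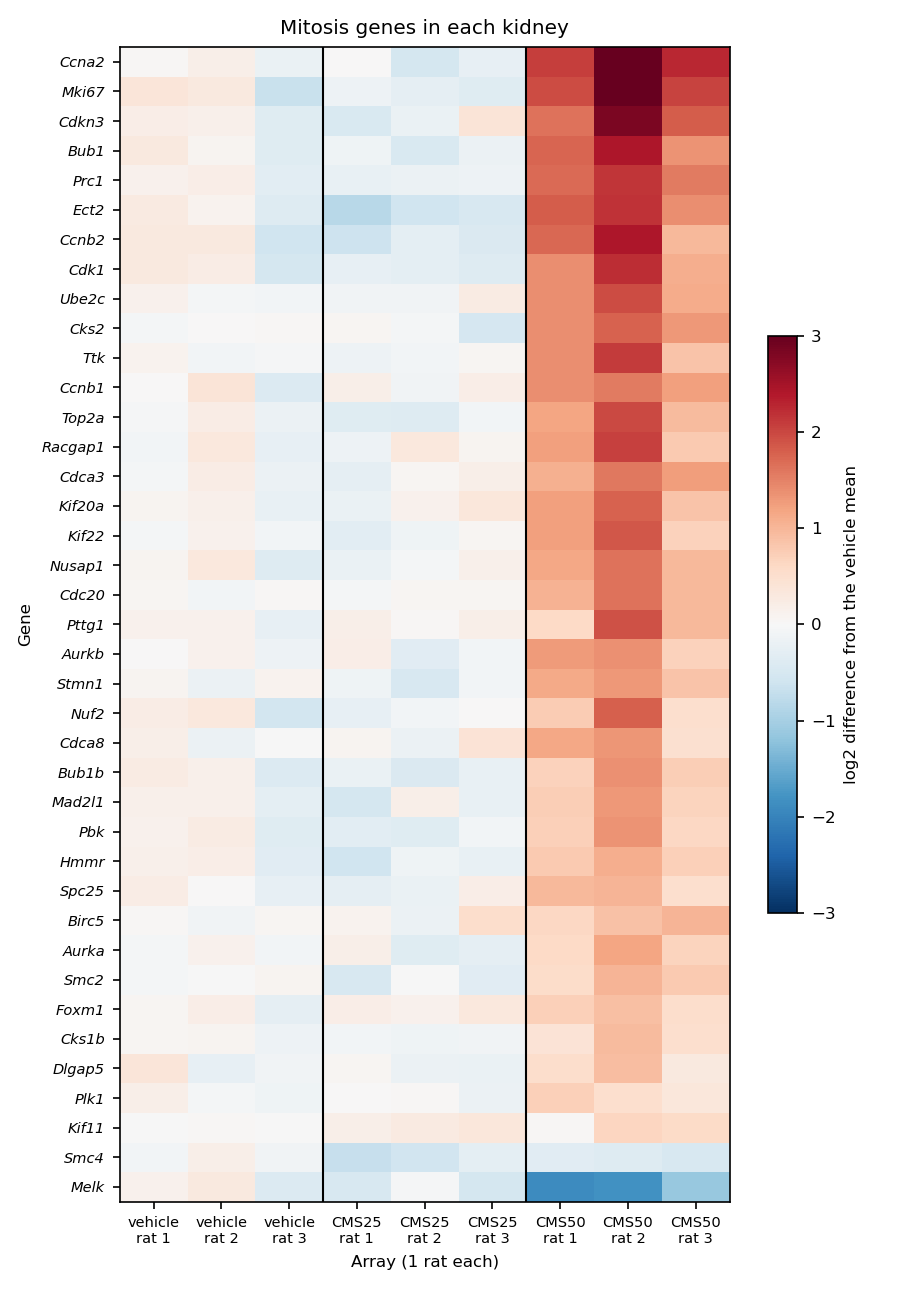
Level of each of the 39 measured mitosis genes in each rat, as the log2 difference from the mean of the vehicle rats (colour scale from -3 to 3), with genes ordered by their change at 50 mg/kg. The 3 columns at 50 mg/kg are red for all but Melk, Smc4 and rat 1 of Kif11, the middle one is the deepest, and the columns at 25 mg/kg stay near those of vehicle.

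All 7 measured members of the cyclin-CDK engine rose at 50 mg/kg, with a median change of 1.57. Cdk1, the kinase whose activity starts mitosis, read 6.12, 6.05 and 5.31 in the vehicle rats, 5.59, 5.54 and 5.43 at 25 mg/kg and 7.22, 8.05 and 6.92 at 50 mg/kg. Each rat at 50 mg/kg lay above all 6 others, rat 2 the farthest, while the 25 mg/kg rats lay within the vehicle range. The change at 50 mg/kg was 1.57 (SE 0.29, adjusted p = 0.00600). Ccnb1, the main B-type cyclin, read 4.63, 5.0 and 4.21 in the vehicle rats, 4.79, 4.50 and 4.81 at 25 mg/kg and 6.0, 6.16 and 5.84 at 50 mg/kg. Its 3 rats at 50 mg/kg were close together and above all others, and the change was 1.39 (SE 0.19, adjusted p = 0.00250). Ccnb2, the other B-type cyclin, read 5.76, 5.78 and 4.88 in the vehicle rats, 4.86, 5.18 and 5.04 at 25 mg/kg and 7.20, 7.89 and 6.45 at 50 mg/kg. Vehicle rat 3 was lower than its group mates by nearly 1 log2 unit, the groups at 0 and 50 mg/kg still did not overlap, and the change was 1.71 (SE 0.34, adjusted p = 0.00878).

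Ccna2, the cyclin that acts from S phase into early mitosis, had the largest change of the 39. It read 3.72, 3.85 and 3.47 in the vehicle rats, 3.68, 3.16 and 3.45 at 25 mg/kg and 5.76, 6.69 and 5.95 at 50 mg/kg. The vehicle and 25 mg/kg rats were all below 4 and those at 50 mg/kg all above 5, a rise of 2.45 (SE 0.23, 5.47-fold, adjusted p = 0.000685). Cdkn3, a phosphatase that removes the activating phosphate from CDKs, read 5.41, 5.37 and 4.86 in the vehicle rats, 4.76, 5.02 and 5.59 at 25 mg/kg and 6.83, 8.04 and 7.03 at 50 mg/kg. Rat 2 at 50 mg/kg was the highest by about 1 log2 unit, no rat at 50 mg/kg overlapped the others, and the change was 2.09 (SE 0.32). The small CDK-binding subunits Cks2 and Cks1b rose by 1.49 (SE 0.16) and 0.62 (SE 0.14). A dimmer probe set of Cks1b, with a mean of 4.74, gave 0.42 and was not called (adjusted p = 0.196 over all probe sets).

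**Figure D3:**
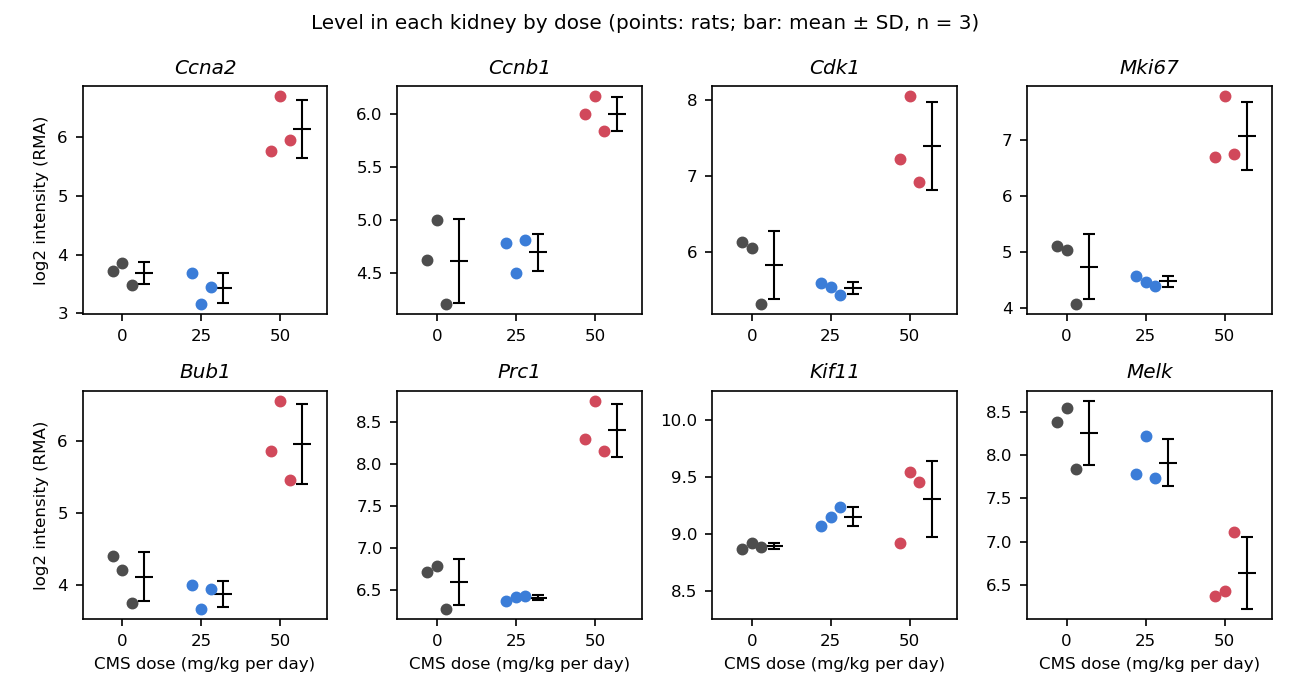
Log2 intensity of 8 mitosis genes against CMS dose in mg/kg per day; points are rats and bars the mean ± SD of 3 rats, with a separate vertical scale for each gene. For Ccna2, Ccnb1, Cdk1, Mki67, Bub1 and Prc1 the 3 rats at 50 mg/kg lie above the other 6, for Melk they lie below, and for Kif11 they overlap the rats at 25 mg/kg.

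Of the 8 mitotic kinases, their partners and the factor Foxm1, 7 rose at 50 mg/kg and Melk fell, with a median change of 0.82. Aurkb, the kinase that corrects faulty chromosome attachments, read 3.67, 3.81 and 3.52 in the vehicle rats, 3.87, 3.33 and 3.59 at 25 mg/kg and 4.96, 5.03 and 4.36 at 50 mg/kg. The rats at 50 mg/kg were all above 4 and the others all below, a change of 1.11 (SE 0.19, adjusted p = 0.00507). Its partners in the chromosomal passenger complex rose as well, Cdca8 (borealin) by 0.99 (SE 0.23) and Birc5 (survivin) by 0.83 (SE 0.17). Aurka, the kinase of the centrosome and spindle poles, rose by 0.81 (SE 0.18). Foxm1, a transcription factor that drives late cell cycle genes, read 5.28, 5.42 and 4.96 in the vehicle rats, 5.42, 5.34 and 5.54 at 25 mg/kg and 5.93, 6.11 and 5.74 at 50 mg/kg. The groups at 0 and 50 mg/kg were apart, with a change of 0.71 (SE 0.14, adjusted p = 0.00785) that was 0.40 with a dimmer probe set averaged in. Its step from 25 to 50 mg/kg was the smallest of any member that passed, at 0.49 (SE 0.14, adjusted p = 0.0327).

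Plk1, the polo-like kinase that acts from mitotic entry to cytokinesis, had the smallest rise against vehicle among those called. It read 6.12, 5.87 and 5.81 in the vehicle rats, 5.94, 5.97 and 5.76 at 25 mg/kg and 6.65, 6.45 and 6.28 at 50 mg/kg. The lowest rat at 50 mg/kg was only slightly above the highest vehicle rat, and the change was 0.52 (SE 0.13, adjusted p = 0.0171). The call was lost without vehicle rat 2 (adjusted p = 0.0622), vehicle rat 3 (0.0617), or rat 1 (0.0660) or rat 2 (0.0530) at 50 mg/kg. Pbk, a kinase active in dividing cells, rose by 0.90 (SE 0.21), and its call was lost without vehicle rat 3 (adjusted p = 0.0524). Without vehicle rat 2 (adjusted p = 0.0547), or rat 1 (0.0577) or rat 2 (0.0548) at 50 mg/kg, Cdca8 was not called.

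Melk, a kinase of the AMPK-related family that is found in proliferating cells, moved the other way. It read 8.38, 8.54 and 7.84 in the vehicle rats, 7.78, 8.23 and 7.73 at 25 mg/kg and 6.37, 6.43 and 7.11 at 50 mg/kg. All rats at 50 mg/kg lay below all others, and rat 3 was the nearest to them. The group means were 8.25 ± 0.37, 7.91 ± 0.27 and 6.64 ± 0.41 (SD, n = 3) at 0, 25 and 50 mg/kg. Melk fell by 1.62 on the log2 scale against vehicle (SE 0.24, adjusted p = 0.00316) and by 1.28 against 25 mg/kg (SE 0.24, adjusted p = 0.00718). It was called lower than vehicle under every one of the 18 alternatives that could be run for it, with changes between -1.86 and -1.47. Melk rests on a single probe set, whose assignment to the gene was taken from the platform annotation and could not be checked against another probe set.

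All 6 measured checkpoint and kinetochore members rose at 50 mg/kg, with a median change of 0.98. Bub1, a checkpoint kinase at the kinetochore, read 4.40, 4.20 and 3.74 in the vehicle rats, 4.0, 3.67 and 3.94 at 25 mg/kg and 5.86, 6.55 and 5.46 at 50 mg/kg. The rats at 50 mg/kg were all above 5 and the other 6 all below 4.5, a rise of 1.84 (SE 0.26, adjusted p = 0.00271). Ttk (Mps1), the kinase that starts checkpoint signalling, read 3.50, 3.31 and 3.37 in the vehicle rats, 3.25, 3.32 and 3.45 at 25 mg/kg and 4.79, 5.50 and 4.25 at 50 mg/kg. The groups did not overlap, and the change was 1.45 (SE 0.25, adjusted p = 0.00507). A dimmer probe set of Ttk, with a mean of 2.88, gave -0.0020 (adjusted p = 0.993 over all probe sets), and averaging the probe sets brought the change of Ttk to 0.72. The checkpoint proteins Bub1b and Mad2l1, which together hold Cdc20 inactive, rose by 0.94 (SE 0.21) and 0.90 (SE 0.22). The Mad2l1 call was lost without vehicle rat 3 (adjusted p = 0.0644) or rat 2 at 50 mg/kg (0.0642).

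Nuf2 and Spc25 belong to the NDC80 complex, which ties kinetochores to microtubules. Spc25 rose by 0.84 (SE 0.18, adjusted p = 0.0119). Nuf2 read 6.07, 6.18 and 5.31 in the vehicle rats, 5.61, 5.78 and 5.86 at 25 mg/kg and 6.62, 7.64 and 6.36 at 50 mg/kg. Rat 2 at 50 mg/kg stood more than 1 log2 unit above its group mates, whose levels exceeded the highest vehicle rat by less than 0.5. The change of 1.02 (SE 0.32) had the weakest call among the members that rose, with an adjusted p of 0.0465. It was 0.64 without rat 2 at 50 mg/kg (adjusted p = 0.120), and the call was lost in 12 of 18 alternatives, with an adjusted p of up to 0.146 without vehicle rat 3.

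Of 8 spindle motors and microtubule proteins, 6 rose at 50 mg/kg, none fell, and the median change was 1.18. Prc1, which bundles the microtubules of the central spindle, read 6.72, 6.78 and 6.27 in the vehicle rats, 6.37, 6.41 and 6.43 at 25 mg/kg and 8.29, 8.74 and 8.15 at 50 mg/kg. Each rat at 50 mg/kg was above 8 and each other rat below 7, a change of 1.81 (SE 0.17, adjusted p = 0.000685). Stmn1 (stathmin), which destabilises microtubules, read 10.35, 10.09 and 10.37 in the vehicle rats, 10.13, 9.79 and 10.20 at 25 mg/kg and 11.40, 11.58 and 11.13 at 50 mg/kg. Its groups were well apart, with a change of 1.10 (SE 0.15, adjusted p = 0.00260). The kinesin Kif20a, which works in cytokinesis, and the chromosome-bound kinesin Kif22 rose by 1.29 (SE 0.23) and 1.26 (SE 0.24). The spindle microtubule proteins Nusap1 and Hmmr rose by 1.25 (SE 0.21) and 0.86 (SE 0.18).

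Kif11 (Eg5), the motor that pushes the spindle poles apart, was the motor that was not called. It read 8.87, 8.92 and 8.88 in the vehicle rats, 9.07, 9.15 and 9.23 at 25 mg/kg and 8.92, 9.54 and 9.46 at 50 mg/kg. Every rat at 25 mg/kg was above every vehicle rat, rat 1 at 50 mg/kg lay at the vehicle level, and the other two at 50 mg/kg were the highest. The change against vehicle was 0.41 (95% interval 0.08 to 0.75, adjusted p = 0.0730), and it became 0.61 (adjusted p = 0.0122) without rat 1 at 50 mg/kg. Another probe set of Kif11, with a mean of 6.70, gave a change of 0.39 that was not called either. Dlgap5 (HURP), which stabilises microtubules near chromosomes, read 5.83, 5.22 and 5.35 in the vehicle rats, 5.52, 5.28 and 5.28 at 25 mg/kg and 6.0, 6.38 and 5.77 at 50 mg/kg. Vehicle rat 1 lay above rat 3 at 50 mg/kg, the only overlap between these doses among the 39, and the change of 0.59 (95% interval 0.16 to 1.01) missed the threshold at an adjusted p of 0.0521. Intervals of both genes lay above 0 and reached no further than about a 2-fold rise.

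Of the 4 chromosome members, 3 rose at 50 mg/kg and Smc4 fell. Mki67 (Ki-67), the proliferation marker that coats mitotic chromosomes, read 5.11, 5.03 and 4.07 in the vehicle rats, 4.57, 4.47 and 4.38 at 25 mg/kg and 6.70, 7.79 and 6.76 at 50 mg/kg. Vehicle rat 3 was about 1 log2 unit under its group mates, and all rats at 50 mg/kg lay above the other 6, with a change of 2.34 (SE 0.32, adjusted p = 0.00261). Top2a, the topoisomerase that untangles sister DNA, read 5.14, 5.41 and 5.0 in the vehicle rats, 4.82, 4.80 and 5.09 at 25 mg/kg and 6.37, 7.16 and 6.12 at 50 mg/kg. No rat at 50 mg/kg overlapped the others, and the change was 1.37 (SE 0.24, adjusted p = 0.00509). A dimmer probe set of Top2a, with a mean of 4.53, gave 0.77 and was not called (adjusted p = 0.115 over all probe sets). In it rat 3 at 50 mg/kg (4.43) lay below vehicle rats 1 and 2 (4.49 and 4.46).

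Smc2 and Smc4 form the core of condensin, which compacts mitotic chromosomes, and their probe sets moved in opposite directions. Smc2 read 6.41, 6.47 and 6.56 in the vehicle rats, 5.99, 6.48 and 6.14 at 25 mg/kg and 7.02, 7.51 and 7.26 at 50 mg/kg. Its rats at 50 mg/kg lay above the rest, a change of 0.78 (SE 0.15, adjusted p = 0.00755). Smc4 read 5.99, 6.24 and 5.95 in the vehicle rats, 5.36, 5.49 and 5.78 at 25 mg/kg and 5.71, 5.67 and 5.59 at 50 mg/kg. Both CMS groups lay below all vehicle rats and overlapped each other, and the change at 50 mg/kg was -0.40 (SE 0.13, adjusted p = 0.0454). That call was lost in 10 of 17 alternatives, including leaving out any one rat of the vehicle or 50 mg/kg group or rat 2 at 25 mg/kg, with adjusted p between 0.0270 and 0.531 over all 17. Another probe set of Smc4 gave a positive value of 0.20 that was not called, and the mean of both was -0.10 (adjusted p = 0.531).

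The 4 members of the anaphase and ubiquitin machinery all rose at 50 mg/kg, with a median change of 1.26. Cdc20, which activates the anaphase-promoting complex, read 5.92, 5.77 and 5.89 in the vehicle rats, 5.81, 5.92 and 5.92 at 25 mg/kg and 6.91, 7.50 and 6.84 at 50 mg/kg. The 6 rats without the higher dose lay within 0.2 log2 units and those at 50 mg/kg lay above them by nearly 1 or more, a change of 1.22 (SE 0.16, adjusted p = 0.00211). Cdc20 had 4 further, dimmer probe sets with changes of 0.11 to 0.68, and the mean of all its probe sets changed by 0.53. Ube2c, the ubiquitin-conjugating enzyme of that complex, read 5.53, 5.33 and 5.31 in the vehicle rats, 5.28, 5.29 and 5.65 at 25 mg/kg and 6.78, 7.35 and 6.50 at 50 mg/kg. Its groups at 0 and 50 mg/kg did not overlap, and the change was 1.49 (SE 0.20, adjusted p = 0.00238).

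Pttg1 (securin), which guards the cohesin-cutting enzyme separase until anaphase, read 5.88, 5.89 and 5.50 in the vehicle rats, 5.92, 5.80 and 5.94 at 25 mg/kg and 6.35, 7.66 and 6.74 at 50 mg/kg. Rat 2 at 50 mg/kg was the highest and rat 1 exceeded the vehicle rats by less than 0.5, a change of 1.16 (SE 0.28, adjusted p = 0.0168) that was not called without vehicle rat 3 (adjusted p = 0.0598). Cdca3, which helps degrade the mitotic inhibitor Wee1, rose by 1.30 (SE 0.17, adjusted p = 0.00211).

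Both measured cytokinesis regulators rose at 50 mg/kg, with a median change of 1.57. Ect2, the exchange factor that starts constriction at the division plane, read 6.25, 6.09 and 5.60 in the vehicle rats, 5.15, 5.39 and 5.50 at 25 mg/kg and 7.79, 8.14 and 7.38 at 50 mg/kg. All rats at 50 mg/kg were above 7, and all rats at 25 mg/kg were below all vehicle rats. Ect2 changed by 1.79 at 50 mg/kg (SE 0.22, adjusted p = 0.00190) and gave -0.64 at 25 mg/kg (SE 0.22, adjusted p = 0.760). Racgap1, the centralspindlin subunit that recruits Ect2, read 5.65, 6.04 and 5.47 in the vehicle rats, 5.56, 6.05 and 5.81 at 25 mg/kg and 6.94, 7.76 and 6.51 at 50 mg/kg. Rat 2 at 50 mg/kg was the highest, the groups at 0 and 50 mg/kg did not overlap, and the change was 1.35 (SE 0.29, adjusted p = 0.0108).

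At 25 mg/kg, 0 of the 39 members and 0 of the 14217 genes (0%) were called by limma. At an unadjusted p under 0.05 these numbers were 2 members (Ect2 and Smc4) and 869 genes. The members' median was -0.11, against -0.0014 over all genes, with 29 members below the vehicle mean and 10 above. Over all 14217 genes, 7154 were below and 7063 above. The upper end of the 95% interval stayed under 1 for all 39, and was highest for Pttg1 at 0.75, so a 2-fold rise lay outside the interval of each member. Only Kif11 had every array above vehicle, and only Ect2 and Smc4 every array below, where 6% and 6.16% of all genes did so. Ccna2 gave -0.25 (95% interval -0.78 to 0.27), Cdk1 -0.31 (-0.95 to 0.34) and Mki67 -0.26 (-0.99 to 0.47).

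**Figure D4:**
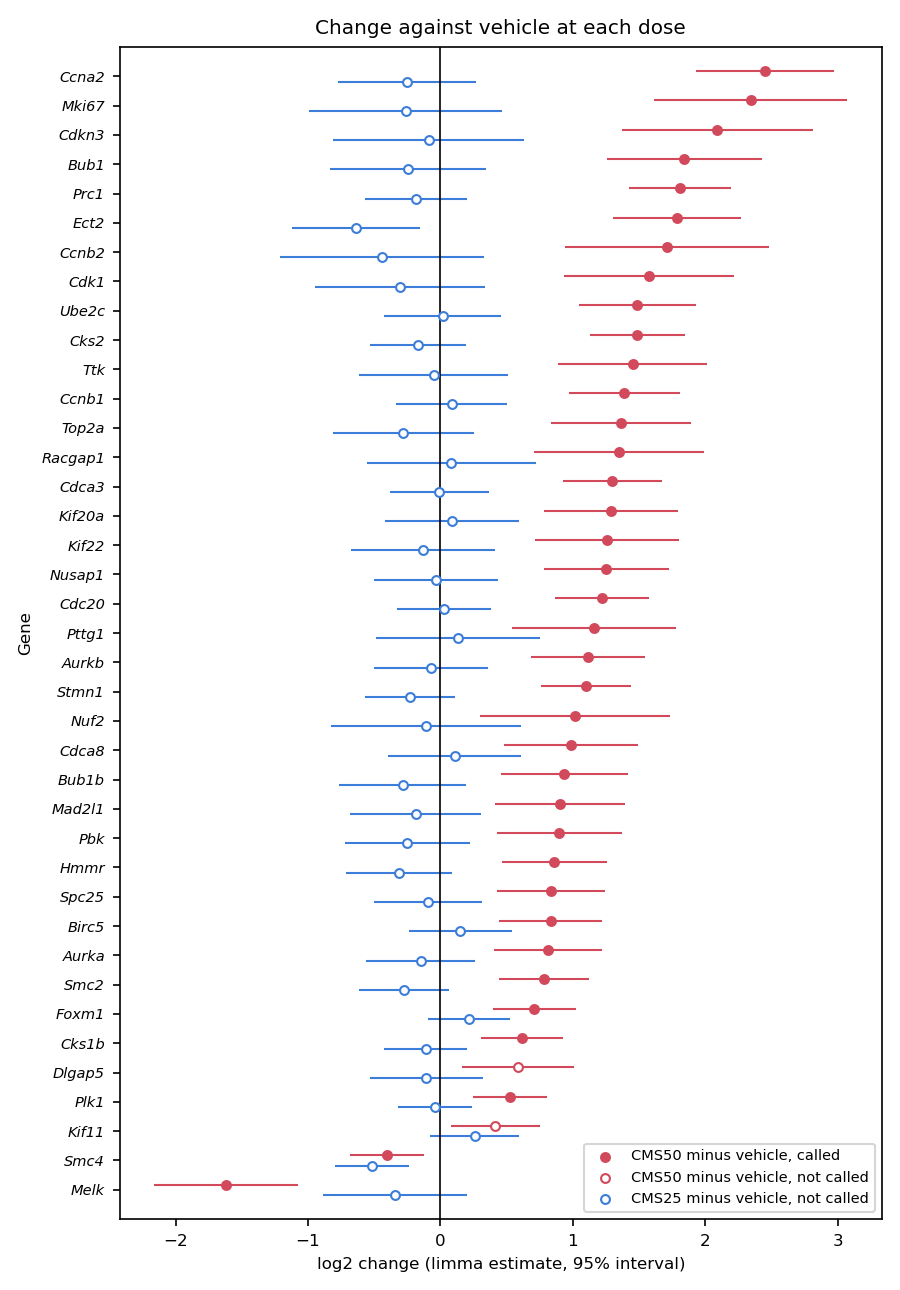
Change of each mitosis gene against vehicle on the log2 scale at 50 mg/kg (red) and 25 mg/kg (blue), with 95% intervals from limma; filled points were called at an adjusted p under 0.05. Red points run from 2.45 for Ccna2 down to -1.62 for Melk, and no blue point is filled.

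Between the CMS doses, 36 of the 39 members were higher at 50 than at 25 mg/kg, Melk was lower, and Kif11 and Smc4 were not called. Limma called 15.3% of all genes higher and 7.05% lower in this comparison, 22.4% in all. The median difference of the members was 1.20. Calls ran from 0.49 for Foxm1 to 2.71 for Ccna2, with adjusted p between 0.000492 and 0.0335. In 36 members every rat at 50 mg/kg was above every rat at 25 mg/kg, and in Melk every one was below, where 24.6% and 15.5% of all genes were so arranged. Kif11 differed by 0.16 (95% interval -0.18 to 0.49) and Smc4 by 0.11 (-0.17 to 0.40). Dlgap5, which missed the threshold against vehicle, was called here at 0.69 (adjusted p = 0.0293). The 50 mg/kg arrays enter both comparisons of that dose. Calls of Birc5, Cdca8, Dlgap5, Foxm1, Nuf2 and Pttg1 were lost when some single rats were left out, with adjusted p of up to 0.118.

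Some rats were the highest or lowest of their dose for most members. At 50 mg/kg, rat 2 was the highest of the 3 for 35 of the 39 members, where it was highest for 35% of all genes, and rat 3 was the lowest for 27, where it was lowest for 38.9%. The members' median distance from the vehicle mean was 1.13, 1.59 and 0.86 in rats 1, 2 and 3 at that dose, with 37 of 39 members above the vehicle mean in each. Among vehicle rats, rat 3 was the lowest for 30 of 39 members, where it was the lowest for 30.2% of all genes, and the medians were 0.11, 0.14 and -0.23. The highest vehicle rat was rat 2 for 22 members and rat 1 for 13, where they were highest for 32.6% and 32.2% of all genes. At 25 mg/kg the medians were -0.16, -0.14 and -0.07. There rat 3 was the highest for 21 members, where it was highest for 32.6% of all genes. The lowest was rat 1 for 19 and rat 2 for 14, where they were lowest for 30.9% and 32.3%. Without vehicle rat 3, 31 members were called at 50 mg/kg. Without rat 2 at 50 mg/kg the members' median change was 0.99, and the number of all genes called went from 3242 to 1648.

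Markers of other cells also moved at 50 mg/kg, to be read against the 14.6% of all genes called higher and the 8.17% called lower. Of 18 macrophage markers, 15 were higher and none lower, with a median change of 1.22. Their summed linear intensity was 4652 to 5311 with vehicle, 3880 to 5691 at 25 mg/kg and 10593 to 17920 at 50 mg/kg. Lyz2 and Cd74 weighed most in it, with means of 12.99 and 11.48 at 50 mg/kg, against 8.65 for C1qa, the next. At that dose rats 1, 2 and 3 had sums of 12486, 17920 and 10593, the same order as the mitosis medians. Fibroblast marker sums (4129, 7017 and 3355) had that order too. It was reversed in the tubule and podocyte (39560, 34058 and 50948), erythroid (1780, 413 and 2244) and T cell sums (334, 323 and 341). B cell and endothelial sums had neither order. Of the 18, only Cd163 and Itgam stayed under 5 in every group. Of 10 fibroblast markers 4 were higher, and the sum was 1813 to 2069, 1310 to 2939 and 3355 to 7017 at the 3 doses. Of 10 T cell markers 4 were higher, with sums of 248 to 270, 263 to 266 and 323 to 341, and 7 of them, Cd3d, Cd4 and Cd8a included, were under 5 in every group. Of 4 B cell markers 1 was higher, with sums of 233 to 272, 215 to 357 and 338 to 423, and Ms4a1 and Cd79b were under 5 throughout. Blnk weighed most in these sums, with a mean of 7.52 with vehicle and 8.28 at 50 mg/kg. Means of Ms4a1, Cd79b and Cd22 were 4.46, 3.89 and 4.98 with vehicle and 4.41, 3.81 and 5.07 at 50 mg/kg. Of 6 endothelial and 3 erythroid markers, 2 of each list were lower and none higher. Of 8 tubular injury markers 7 were higher and none lower, with a median change of 2.76. Of 9 tubule and podocyte markers 1 was higher and 2 were lower, and all 9 were above 5 in every group, with sums of 50437 to 53025, 49907 to 51099 and 34058 to 50948. Slc34a1, Umod, Lrp2 and Slc12a1 weighed most in these sums. Their means were 13.82, 13.72, 13.33 and 12.79 with vehicle and 13.66, 12.45, 13.40 and 12.00 at 50 mg/kg. Of the 9 changes, called or not, 3 were positive (Lrp2, Slc5a2 and Cdh16) and 6 negative. The beta-actin 3′ minus 5′ difference, which grows as RNA is degraded, was 2.80 to 3.08, 3.05 to 3.28 and 3.48 to 3.63 at the 3 doses. That of GAPDH was 0.51 to 0.56, 0.50 to 0.91 and 0.77 to 0.89, where the 2 CMS groups overlapped. In rats 1, 2 and 3 at 50 mg/kg the actin difference was 3.625, 3.628 and 3.479. This was the order of the mitosis medians, with rats 1 and 2 nearly equal. The GAPDH differences of these rats, 0.886, 0.766 and 0.796, had neither that order nor its reverse. The part of these cells or of RNA quality in the mitosis gene result was not tested.

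Genes of the same machinery outside the 44 were described from lists grouped by role, whose counts stand against 14.6% of all genes called higher and an all-gene median of 0.03. Of 23 measured genes among 26 further spindle and cytokinesis genes, 15 were higher at 50 mg/kg and none lower, with a median of 0.56. They included Kif23, the motor of centralspindlin (1.60, adjusted p = 0.00587). Of 26 measured among 28 further kinetochore and centromere genes, 10 were higher and none lower, with a median of 0.42. The large kinetochore protein Cenpf (1.71, adjusted p = 0.00268) and Spc24, the partner of Spc25 (1.40, adjusted p = 0.00307), were among these. Of 17 condensin and cohesin genes 4 were higher, with a median of 0.14, among them the separase Espl1 (1.08) and the condensin subunit Ncapd2 (1.01). Of 17 genes for subunits and regulators of the anaphase-promoting complex 4 were higher, with a median of 0.11, led by the catalytic core subunit Anapc2 (0.73, adjusted p = 0.00263).

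Genes that act earlier in the cycle were counted in the same way, again beside 14.6% of all genes. Of 32 measured among 38 replication genes, 18 were higher and none lower, with a median of 0.48, led by the helicase subunits Mcm6 (1.78, adjusted p = 0.00211) and Mcm4 (1.23, adjusted p = 0.00309), while the sliding clamp Pcna gave 0.15 (adjusted p = 0.250). Of 11 G1 cyclins and CDKs, with a median of 0.20, 2 were higher, Cdk4 (0.82, adjusted p = 0.00265) and cyclin D1, Ccnd1 (0.74, adjusted p = 0.0161). Of 7 CDK inhibitors, with a median of 0.13, 2 were higher, Cdkn1a (p21, 0.99, SE 0.13, adjusted p = 0.00211) and Cdkn2c (p18, 0.58, adjusted p = 0.00870). Of 17 E2F, retinoblastoma family and MuvB genes, with a median of 0.12, 3 were higher, led by the MuvB subunit Lin9 (0.81, adjusted p = 0.00338). The shares of the G1 and the E2F lists were near that of all genes. The CDK1 switch list (Cdc25, Wee1 and Greatwall genes) had 6 measured genes, Cdc25a, Cdc25b, Wee1, Pkmyt1, Ensa and Arpp19. None of them was called at 50 mg/kg against vehicle, their median was -0.08, and none had an unadjusted p under 0.05. Cdc25b, an activating phosphatase, was lower at 50 than at 25 mg/kg, with a difference of -0.67 (adjusted p = 0.00919). This difference came with a higher level at 25 mg/kg (0.62 against vehicle, not called). At 50 mg/kg against vehicle the lowest value of the list was -0.19. No gene of any of these lists was called at 25 mg/kg, where no gene on the array was.

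**Figure D5:**
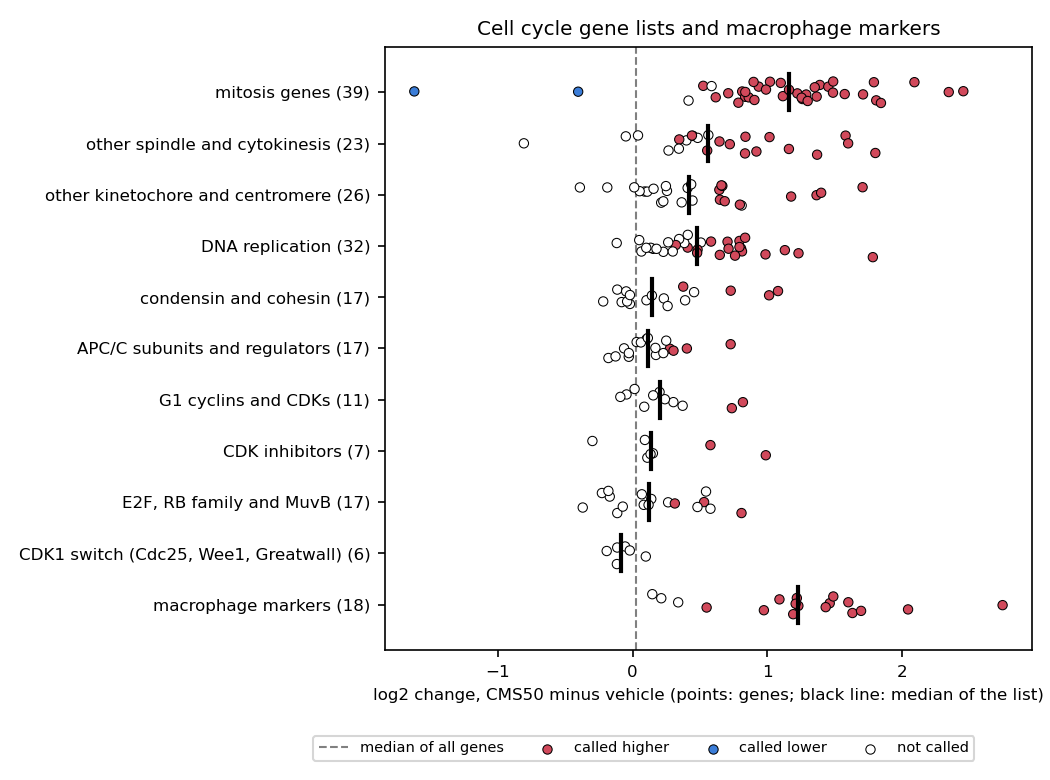
Change at 50 mg/kg against vehicle on the log2 scale for each measured gene (points) of the mitosis genes, 9 further cell cycle lists and the macrophage markers, with the number measured in brackets, the median of each list as a black line and the median of all genes, 0.03, as a dashed line. Among the cell cycle lists the medians run from 1.16 for the mitosis genes to -0.08 for the CDK1 switch genes, and that of the macrophage markers is 1.22.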

How the data were processed

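Kidney RNA of 9 rats was measured on Affymetrix GeneChip Rat 230 2.0 arrays, which read transcripts near their 3′ ends. The authors deposited log2 values summarised by RMA (background correction, quantile normalization and median polish) with Affymetrix Expression Console, per the submitters' processing notes, whose versions are not given. Of 31099 probe sets, 20826 were annotated to 1 gene by the platform table, checked against RefSeq symbols. Where a gene had several, only its brightest on average over all arrays was kept, which left 14217 genes. Changes came from limma 3.58.1 (R 4.3.3) with 3 groups, moderated variances, no covariate and no intensity minimum, and p-values were Benjamini-Hochberg adjusted over all genes, called under 0.05. The code was tested on simulated data. No batch is given in the labels, and the labels call the arrays biological replicates. Same-numbered rats did not deviate together (2 of 9 pairs had a correlation over 0.1), so numbers paired nothing. Named were all members, the called genes of each other list with the largest changes, and Ccnd1, Cdkn1a and Pcna, except that a result of the further spindle and cytokinesis list is not reported here. Cdc25b and the CDK1 switch genes were named after their values were seen. Members and lists were chosen with earlier results of these data known, so their counts are descriptions. Promoters came from RefSeq (GRCr8), the first entry of each gene. Alternatives were signal minimums of 5 and 6, the mean of all probe sets, every probe set, cyclic loess, median centring, trend and robust eBayes, array weights, only 2 groups, a replicate block and leaving out each rat.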

Additional observations from a re-analysis of the deposited data

How the results depend on the processing

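With all 39 members measured, 31 to 38 were called at 50 mg/kg against vehicle under the alternatives. A minimum mean of 6 kept 15 members and called 14 of them, against vehicle and against 25 mg/kg alike, because fewer were tested. The mean was taken over all arrays, those at 50 mg/kg included. Ect2, Cdk1, Plk1, Cdc20, Racgap1, Nuf2, Cdca3 and Pttg1 averaged under 6 both with vehicle and at 25 mg/kg. These genes passed the minimum only through their levels at 50 mg/kg. It thus selected for their rise, and their calls under it are no independent check. The same holds under the minimum of 5 for Mki67, Ccnb1, Aurka, Kif22 and Mad2l1. These averaged under 5 both with vehicle and at 25 mg/kg, and passed only through their levels at 50 mg/kg. Leaving out 1 rat in turn gave 31 to 37 members called against vehicle (lowest without vehicle rat 3) and 31 to 37 between CMS doses (lowest without rat 2 at 25 mg/kg). The members' median then ranged from 0.99 to 1.32 against vehicle, 1.00 to 1.38 between CMS doses and -0.19 to -0.075 at 25 mg/kg, where it was -0.19 without vehicle rat 3 and -0.16 without rat 3 at 25 mg/kg. All genes called then ranged from 1648 to 3685 against vehicle and from 1486 to 3673 between CMS doses. At 25 mg/kg 0 genes were called under every alternative, and 28 uncalled values changed sign. No called change reversed. Of 37 calls, 30 held in all alternatives against vehicle and 31 between CMS doses, with the signal minimums counted among the alternatives. Averaging a gene's probe sets lowered Cdc20 to 0.53, Ttk to 0.72 and Foxm1 to 0.40. Of 16 further probe sets of 12 members, 14 changed in the same direction against vehicle at 50 mg/kg and 6 were called higher. A mean under 5 was found for 14 of the 16. The replicate numbers paired nothing (correlations of -0.163 to 0.206, own number best in 6 of 18 checks); a replicate block gave 36 members and 2879 genes called against vehicle, 37 and 2853 between CMS doses, and 0 at 25 mg/kg. With 3 rats a group, a change of about 2-fold was at the limit of detection in a variable gene such as Nuf2. The cause of these shifts was not tested.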
